A study of Rattus norvegicus with 62 samples.

Results

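Vehicle-treated rat hearts collected 336 h after the last of 14 daily doses were set against vehicle-treated hearts collected 168 h after it. The tissue was heart muscle of male rats of the outbred Wistar strain, and both groups had received 0 mg/kg rosiglitazone by mouth once a day, with rosiglitazone at 10 or 80 mg/kg given in other groups of the series. The members were every array that the titles assign to these groups, 5 at 336 h (numbered 2 to 6) and 5 at 168 h (numbered 1 to 5), out of 62 arrays in all. No rosiglitazone separates the groups, so the comparison asks how much untreated hearts differ between late sampling times that lie a week apart. The other groups used here were vehicle hearts at 6 h (4 arrays) and 24 h (6 arrays), hearts after 10 mg/kg at 336 h (6 arrays) and 168 h (5 arrays), and hearts after 80 mg/kg at 336 h (5 arrays) and 168 h (6 arrays). The labels give neither the animals' age nor the composition of the vehicle, and they do not state that different samples are different animals. The p-values therefore rest on the variation among these arrays, which may be partly technical.

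The young rat heart grows mainly by enlargement of existing muscle cells, with cell division and collagen deposition slowing after birth. Growth hormone acts on it through its receptor and through insulin-like growth factor 1, while the circadian clock and adrenal glucocorticoids set daily rhythms in its fuel use. Each probe set on the array, a group of short probes for 1 transcript, gave a log2 signal after quantile normalization, and differences below are log2 differences of the mean at 336 h minus the mean at 168 h. A probe set was called, and is said to have risen or fallen, at a Benjamini-Hochberg adjusted p under 0.05 in limma, over the 18625 probe sets tested.

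The arrays of the groups were also compared as whole profiles and by technical measures. The first principal components of all probe sets held 5.94% and 4.16% of the variance. On them the 62 arrays were divided into 3 clusters, a number set beforehand. All 16 arrays of 336 h lay in one of them, together with 5 of the 46 arrays of the other times, while each of the 9 groups of other times held arrays of both other clusters. Of the 168 h vehicle arrays, replicates 2, 4 and 5 lay in the second cluster, replicate 1 in the third, and replicate 3 in the cluster of the 336 h arrays. The clusters were found from the expression values themselves, the labels name no hybridisation or scan batch, and time and cluster cannot be told apart among the 336 h arrays. Of 7 technical measures compared by exact two-sided permutation tests (252 arrangements, smallest possible p = 0.00794), the mean level of the poly-A spike controls was 6.36 ± 0.25 at 336 h and 7.02 ± 0.42 at 168 h (SD, n = 5 each, exact p = 0.0159, adjusted p = 0.0556). The mean rank correlation of an array with the rest of its group was 0.943 ± 0.0017 at 336 h and 0.928 ± 0.00432 at 168 h (SD, n = 5 each, exact p = 0.00794, adjusted p = 0.0556). The 2% trimmed mean of the deposited signals lay between 155 and 190 at 336 h and between 85.1 and 198 at 168 h, lowest in replicate 2, and the other measures had adjusted p-values of at least 0.37.

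**Figure D1:**
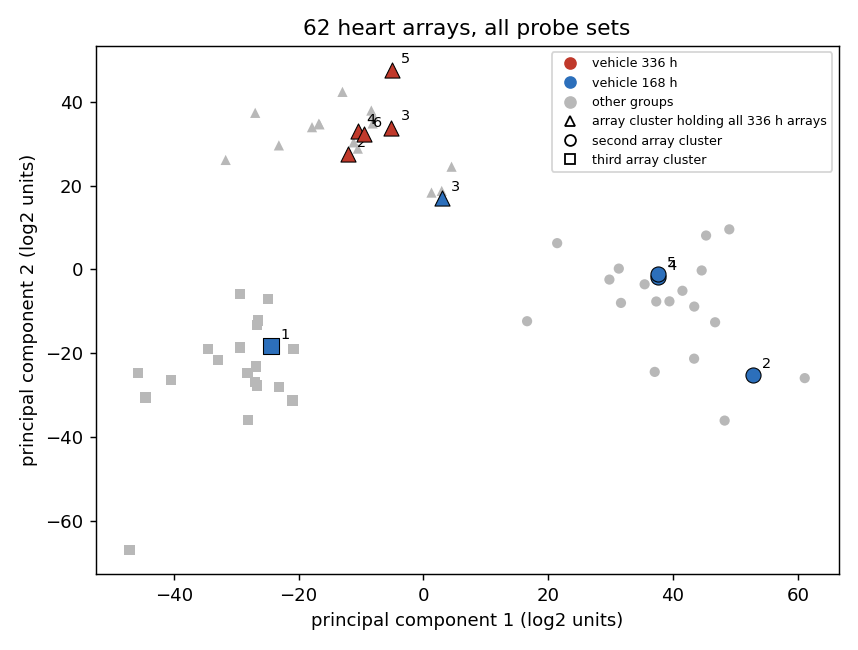
Principal components 1 and 2 (log2 units) of all 62 arrays, with vehicle arrays of 336 h in red and of 168 h in blue, numbered by replicate; the marker shape gives the array cluster. The 5 arrays of 336 h lie together, and the 5 arrays of 168 h are spread over 3 clusters, with replicate 3 in the one that holds the 336 h arrays.

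Vehicle hearts at 336 h differed from those at 168 h in a broad and mostly small set of transcripts. Of the 18625 probe sets 848 were called (4.55%), with 334 higher (1.79%) and 514 lower (2.76%). At an unadjusted p under 0.05 there were 3950. The median size of a called difference was 0.51, and 64 reached a size of 1, with 32 in each direction. In 467 of the called probe sets (55.1%) the 5 arrays of 336 h did not overlap with the 5 of 168 h, against 6.51% of all tested (2.92% apart and higher, 3.6% apart and lower). The called probe sets with 1 gene stood for 617 genes, 286 higher and 331 lower.

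These calls rested on the fit across all arrays and on quantile normalization. With only the 10 arrays in the fit 0 were called (4083 at an unadjusted p under 0.05), on the deposited scale 0 (2123 unadjusted), and with median scaling 135, of which 22.2% were higher, against 39.4% of the 848. With the array cluster as a block 0 probe sets were called (smallest adjusted p = 0.135, 1218 at an unadjusted p under 0.05). Of the 848 called without it, 840 kept their sign (99.1%, against 75.5% of all tested), and the median share of the size that was kept was 49.9%. Within the cluster of the 336 h arrays, 5 arrays of 336 h could be set against 1 of 168 h, whose spread is assumed to be that of the other groups. There 36 probe sets were called (33 higher and 3 lower), 2 of them among the 848, and 797 of the 848 had the same sign (94.0%). The count also moved with single arrays: it was 145 without 168 h replicate 2, 215 without replicate 4 and 276 without replicate 5 of that group, 228 to 554 without 1 array of 336 h, 881 without 168 h replicate 1, and 1677 without 168 h replicate 3. Whichever array was left out, 92 probe sets stayed called, 14 higher and 78 lower.

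The 168 h arrays differed in how near they lay to the 336 h hearts, over all probe sets and not only the called ones. Over all tested probe sets replicate 3 lay inside the range of the 5 arrays of 336 h for 62.6%, against 53.8%, 41.2%, 46.2% and 46.9% for replicates 1, 2, 4 and 5. Among the 848 called, which were chosen for a difference between these groups, the count inside that range was 280 (33.0%) for replicate 3 and 75, 24, 21 and 28 for replicates 1, 2, 4 and 5. Replicate 3 lay nearer to the 336 h mean than to the mean of its own group's other arrays for 511 of the called (60.3%). Over all tested probe sets it did so for 58.4%. The other 168 h arrays did so far less often among the called. For replicates 1, 2, 4 and 5 the share was 16.3%, 2.48%, 2.12% and 4.72% of the called. Over all tested their shares were 49.4%, 35.4%, 35.6% and 36.5%. Some genes named below had a called probe set that stayed called whichever of the 10 arrays was left out. They were Igf1, Ttn, Trpm7, Hnrnph1, Vcl, Col1a2, Clk1, Cbfb, Klf15, Proser3, Rab14, Rhoa, Sox4 and Usp2. The genes named among the 92 in the closing observations did too, as did Gpbp1 in a probe set not given below.

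Members of the growth hormone and insulin-like growth factor axis gave the smallest p-value of the comparison. Igf1 encodes insulin-like growth factor 1, a circulating and local growth factor. One of its 3 kept probe sets read 8.15, 7.91, 7.84, 7.55 and 7.72 in the 336 h hearts, against 8.86, 8.41, 8.42, 8.82 and 8.54 in the 168 h hearts. All 336 h hearts lay below all 168 h hearts, including replicate 3, and the probe set fell by 0.78 (SE 0.13, adjusted p = 0.00212), or by 0.60 with the cluster block (adjusted p = 0.135). This probe set was singled out after its values were seen. The brightest Igf1 probe set averaged 8.94 ± 0.16 at 336 h and 8.98 ± 0.31 at 168 h (SD, n = 5 each), a difference of −0.03 (adjusted p = 0.924), and the other differed by −0.20 (adjusted p = 0.617). The decrease was therefore read by 1 of the 3 probe sets for this gene, and which transcripts each of them detects was not examined.

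Ghr, the growth hormone receptor, read 8.39, 8.32, 8.29, 7.94 and 8.24 at 336 h and 9.31, 8.92, 8.57, 9.31 and 9.15 at 168 h. It fell by 0.82 (SE 0.21, adjusted p = 0.022), with the groups apart and the lowest 168 h value in replicate 3. Insr, the insulin receptor, averaged 7.24 ± 0.15 at 336 h and 7.66 ± 0.19 at 168 h (SD, n = 5 each) and fell by 0.42 (SE 0.13, adjusted p = 0.0448). Taking the brightest kept probe set of each gene, these were the 2 called of 22 measured members of the list, 0 higher and 2 lower, with 14 members positive and a median of 0.12. Over all 10557 genes tested 4.67% were called on that probe set, of which 2.34% of genes were higher and 2.33% lower, with 47.2% negative and a median of 0.02. The counts of called list members below are to be read beside these shares. Members of the list that were not called included the receptor Igf1r at −0.65 (adjusted p = 0.139) and the growth-hormone-induced inhibitor Cish at 0.73 (adjusted p = 0.0857).

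Genes of proliferation showed no called member. Of 30 measured cell cycle and DNA replication genes 0 were called in either direction, 21 were negative and the median was −0.08. Top2a, the DNA topoisomerase of dividing cells, averaged 6.17 ± 0.20 at 336 h and 6.18 ± 0.19 at 168 h, and Mki67, a marker of cycling cells, 5.44 ± 0.56 at 336 h and 5.82 ± 0.15 at 168 h (SD, n = 5 each). Neither difference was called (adjusted p = 0.99 and 0.619). The interval of the Top2a difference ran from −0.59 to 0.57.

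Collagen and matrix genes had few called members. Of 37 measured members 1 was called on the brightest probe set: Lox, the enzyme that crosslinks collagen, read 6.35, 6.66, 6.30, 6.11 and 6.73 at 336 h and 7.14, 6.85, 7.08, 7.42 and 6.76 at 168 h. It fell by 0.62 (SE 0.17, adjusted p = 0.0248) and by 0.73 with the cluster block, and the groups did not overlap. The list had 21 positive and 16 negative members with a median of 0.05, which turned to −0.22 with 33 negative under the cluster block. Col1a1, a chain of type I collagen, stood at 0.42 (adjusted p = 0.27) and Col3a1, the type III collagen chain, at −0.24 (adjusted p = 0.26). Individual probe sets of 1 gene disagreed here. Col1a2, the partner chain of Col1a1, fell by 0.57 in one probe set (10.04 ± 0.14 at 336 h and 10.61 ± 0.15 at 168 h, SD, n = 5 each, adjusted p = 0.00607) and differed by 0.16 in its brighter one (adjusted p = 0.728). Sparc, a collagen-binding matrix protein, rose by 1.23 in one probe set (adjusted p = 0.021) and stood at 0.34 in the other (adjusted p = 0.467). The first Sparc probe set read 12.08, 11.96, 12.12, 12.11 and 11.92 at 336 h and 11.09, 10.27, 11.96, 10.47 and 10.25 at 168 h. Replicate 3 of 168 h lay among the 336 h values, and with the cluster block the difference was 0.01.

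In the contractile apparatus the transcript of the giant spring protein fell and those of the motor proteins did not pass the test. Ttn encodes titin, which spans the sarcomere and sets passive stiffness. It read 12.71, 12.59, 12.56, 12.70 and 12.65 in the 336 h hearts, against 12.99, 12.98, 13.00, 13.08 and 13.12 in the 168 h hearts. The groups lay well apart relative to their spread, and Ttn fell by 0.39 (SE 0.07, adjusted p = 0.00228), by 0.35 with the cluster block and by 0.35 against 168 h replicate 3 alone. Ttn was the 1 member called of 25 measured sarcomere genes, whose median was 0.03 and turned to −0.02 under the cluster block and −0.13 with median scaling. Myh6, the main myosin heavy chain of the adult rat ventricle, averaged 13.96 ± 0.05 at 336 h and 13.92 ± 0.01 at 168 h (adjusted p = 0.655). It lay at the bright end of the scale, where quantile normalization leaves few distinct values, and its difference was −0.19 with median scaling. Myh7, the slow fetal-type myosin, averaged 12.17 ± 0.33 at 336 h and 12.01 ± 0.57 at 168 h (adjusted p = 0.86; SD, n = 5 each). Vcl, or vinculin, which anchors actin at cell junctions, fell by 1.08 in one probe set (adjusted p = 0.00524). All 5 arrays of 336 h (10.20 to 10.65) lay below all 5 of 168 h (11.12 to 11.92). Replicate 3 was the lowest of the 168 h arrays, and the difference was −0.36 with the cluster block. Its other kept probe sets stood at −0.07 and 0.30 (adjusted p = 0.758 and 0.712).

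Wall stress genes did not pass the test. Of the 12 measured members of the fetal program 0 were called, 10 of them were negative and the median was −0.27. Nppb, the B-type natriuretic peptide released by stretched muscle, read 11.33, 10.63, 10.93, 11.92 and 10.91 at 336 h and 11.87, 11.39, 11.68, 11.75 and 11.73 at 168 h (difference −0.54, adjusted p = 0.166). The groups overlapped through 1 array of 336 h, replicate 5. Nppa, the atrial natriuretic peptide, stood at −0.52 (adjusted p = 0.696), with 8.56 to 10.55 at 336 h and 9.34 to 11.08 at 168 h.

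Calcium handling and excitability genes moved singly. Jph2, junctophilin 2, ties the surface membrane to the calcium store. It read 11.32, 11.52, 11.47, 11.50 and 11.38 at 336 h and 11.03, 10.76, 11.05, 10.67 and 10.75 at 168 h, and it rose by 0.59 (SE 0.15, adjusted p = 0.0205) with no overlap. Slc8a1, the sodium-calcium exchanger that extrudes calcium, fell by 0.33 (10.79 ± 0.12 at 336 h and 11.12 ± 0.08 at 168 h, adjusted p = 0.012). Trdn, or triadin, which anchors calsequestrin at the release channel, fell by 0.68 (9.22 ± 0.18 at 336 h and 9.90 ± 0.37 at 168 h, adjusted p = 0.0443), and its lowest 168 h value, 9.33 in replicate 3, lay inside the 336 h range. These 3 were the called members of 20 measured. Over all genes tested 2.34% were called higher and 2.33% lower. Among 19 ion channel genes 2 rose and 0 fell. Kcnk3, a two-pore background potassium channel, rose by 0.88 (9.08 ± 0.22 at 336 h and 8.20 ± 0.47 at 168 h, adjusted p = 0.0314). Hcn2, a pacemaker current channel, rose by 0.92 (8.89 ± 0.49 at 336 h and 7.97 ± 0.47 at 168 h, adjusted p = 0.0497). Among 19 adrenergic and muscarinic signalling genes Prkaca, the catalytic subunit of protein kinase A, rose by 0.71 (10.15 ± 0.21 at 336 h and 9.44 ± 0.42 at 168 h, adjusted p = 0.0448). Gnai2, an inhibitory G protein subunit, rose by 0.60 (9.81 ± 0.12 at 336 h and 9.21 ± 0.27 at 168 h, adjusted p = 0.0367). The errors in this paragraph are SD with n = 5 in each group.

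**Figure D2:**
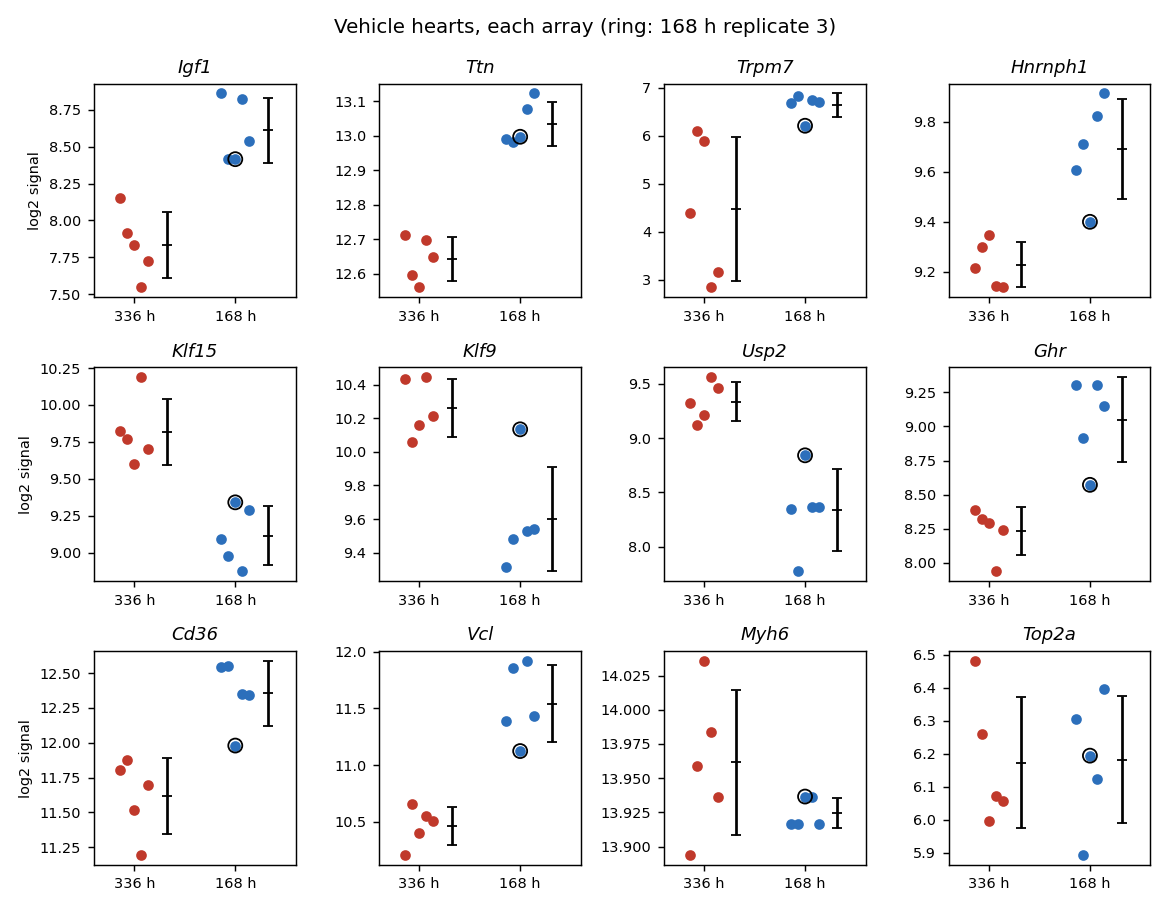
Log2 signal of 12 genes in each vehicle array, 336 h in red and 168 h in blue, with the mean and SD (black) of each group (n = 5) and a ring around 168 h replicate 3; each panel has its own vertical range, and Igf1 and Vcl show the called probe set. Ttn and Igf1 separate the groups with replicate 3 among the other 168 h arrays, and Myh6 and Top2a overlap. For Trpm7, Hnrnph1, Klf15, Klf9, Usp2, Ghr, Cd36 and Vcl the ringed array is the 168 h array nearest to the 336 h hearts.

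Among genes that answer glucocorticoids, 2 Krüppel-like transcription factors rose. Klf15 is a glucocorticoid-induced regulator of amino acid and lipid use in heart and muscle, and Klf9 is a glucocorticoid- and clock-linked repressor. Their promoters are shown because both genes moved the same way. The sequences run 5′ to 3′ along the gene and are credited to RefSeq, build GRCr8. They cover 250 bases before and 50 after the annotated start, with the palindromic clock E-box CACGTG in capitals where it is present.
Klf15 (chr4:124522765-124523064, + strand): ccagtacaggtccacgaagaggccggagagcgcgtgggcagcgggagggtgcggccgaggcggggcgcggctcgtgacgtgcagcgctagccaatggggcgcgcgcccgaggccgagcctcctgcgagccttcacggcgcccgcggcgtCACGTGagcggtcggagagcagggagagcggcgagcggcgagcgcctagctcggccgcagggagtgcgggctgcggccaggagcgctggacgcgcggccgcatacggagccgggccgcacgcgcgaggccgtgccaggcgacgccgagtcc
Klf9 (chr1:230126396-230126695, + strand): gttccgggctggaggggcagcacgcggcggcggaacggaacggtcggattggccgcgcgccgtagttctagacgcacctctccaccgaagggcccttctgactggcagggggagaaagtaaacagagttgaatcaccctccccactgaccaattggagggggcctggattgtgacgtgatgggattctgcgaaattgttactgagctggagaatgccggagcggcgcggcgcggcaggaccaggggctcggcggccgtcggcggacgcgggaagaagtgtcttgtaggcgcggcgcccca
The Klf15 window held 1 such E-box, beginning at base 150 of the 300 shown, and the Klf9 window held 0. Its GC content was 77.3% for Klf15 and 65.3% for Klf9. Of 10557 genes tested 8770 were matched to a promoter, and 9.69% of these held the motif, which reads the same on both strands. By the call of the brightest probe set the shares were 9.95% of 201 called higher, 8.97% of 223 called lower and 9.71% of 8346 not called. Median GC content was 63.3% for genes called higher, 62% for genes called lower and 61.0% for genes not called. These letters describe the windows and say nothing of binding.

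Klf15 read 9.82, 9.77, 9.60, 10.19 and 9.70 in the 336 h hearts, against 9.09, 8.98, 9.34, 8.87 and 9.29 in the 168 h hearts. All 336 h values lay above all 168 h values, and Klf15 rose by 0.70 (SE 0.16, adjusted p = 0.0109), or by 0.41 with the cluster block. Klf9 read 10.44, 10.06, 10.16, 10.44 and 10.21 at 336 h and 9.32, 9.48, 10.13, 9.53 and 9.54 at 168 h. It rose by 0.66 (SE 0.17, adjusted p = 0.0204), the groups overlapped through 168 h replicate 3, and the difference was 0.12 with the cluster block. Klf15 and Klf9 were the called members of 20 measured in the glucocorticoid and FoxO list (13 positive, median 0.17). Over all genes tested 2.34% were called higher. The glucocorticoid-induced chaperone Fkbp5 stood at 0.27 (adjusted p = 0.558) and Pdk4, the kinase that shuts down glucose oxidation, at −0.31 (adjusted p = 0.519). Cdkn1a was not called and read 7.82 to 9.12 at 336 h and 7.81 to 8.40 at 168 h.

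Dbp, Bmal1 and Per2, which swing strongly over the day, did not pass the test. Dbp, a clock output transcription factor, averaged 7.12 ± 0.64 at 336 h and 7.0 ± 0.37 at 168 h (adjusted p = 0.857). Its transcriptional activator Bmal1, which peaks opposite to it, averaged 7.37 ± 0.41 at 336 h and 7.41 ± 0.53 at 168 h (adjusted p = 0.956), and the period gene Per2 5.40 ± 0.74 at 336 h and 5.45 ± 0.61 at 168 h (adjusted p = 0.958; SD, n = 5 each). In vehicle hearts at 6 h the means were 9.08 for Dbp, 5.74 for Bmal1 and 7.82 for Per2, and at 24 h they were 7.29, 7.36 and 5.72. The 336 h and 168 h means of these 3 genes thus lay close to those of 24 h. Nr1d1, another clock gene, lay further apart. It averaged 8.83 ± 0.67 at 336 h and 8.16 ± 0.85 at 168 h (SD, n = 5 each). Its difference of 0.67 was not called (adjusted p = 0.246) and was 0.05 with the cluster block. Its means were 8.36 at 24 h and 8.55 at 6 h. Of 17 measured clock and clock output genes 2 were called. Usp2, a rhythmic ubiquitin protease, read 9.32, 9.12, 9.22, 9.56 and 9.46 at 336 h and 8.35, 7.77, 8.84, 8.37 and 8.36 at 168 h. It rose by 1.0 (SE 0.22, adjusted p = 0.00902) with no overlap, and its other kept probe set stood at 0.60 (adjusted p = 0.23). Clock, the partner of Bmal1, fell by 0.40 (7.96 ± 0.14 at 336 h and 8.36 ± 0.23 at 168 h, SD, n = 5 each, adjusted p = 0.0453). Its value in 168 h replicate 3 was 7.94, and against that array alone the difference was 0.02. Of 18 immediate early genes, the first to be transcribed after a stimulus, 0 rose and 2 fell. The share called lower over all genes tested was 2.33%. Jund fell by 0.47 (adjusted p = 0.0497) and Klf6 by 0.48 (adjusted p = 0.0387), while Fos stood at −0.71 (adjusted p = 0.599).

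Genes of fuel supply moved in both directions. Cd36, the fatty acid transporter of the muscle cell membrane, read 11.80, 11.88, 11.52, 11.19 and 11.70 at 336 h and 12.55, 12.55, 11.98, 12.35 and 12.34 at 168 h. It fell by 0.74 (SE 0.18, adjusted p = 0.0172) with no overlap and was the 1 called of 25 measured fatty acid oxidation genes (17 positive, median 0.08). Slc2a4, the insulin-responsive glucose transporter, rose by 0.49 (11.31 ± 0.11 at 336 h and 10.82 ± 0.25 at 168 h, adjusted p = 0.0255). Pfkm, the muscle phosphofructokinase that commits glucose to glycolysis, rose by 0.30 (12.32 ± 0.08 at 336 h and 12.02 ± 0.12 at 168 h, adjusted p = 0.0192). They were the 2 called of 20 measured members of the glucose uptake and glycolysis list, in which 16 members were positive and the median was 0.18. Among 14 PPAR alpha targets, Ucp2, a mitochondrial carrier, rose by 0.91 (11.35 ± 0.31 at 336 h and 10.44 ± 0.41 at 168 h, adjusted p = 0.0256). Plin5, a lipid droplet coat of oxidative tissue, rose by 0.73 (9.15 ± 0.12 at 336 h and 8.42 ± 0.41 at 168 h, adjusted p = 0.0332). The list's median was −0.08, and its 2 called members stand beside 2.34% called higher over all genes tested. Ppargc1a, the coactivator of mitochondrial biogenesis, fell by 0.63 (8.78 ± 0.45 at 336 h and 9.41 ± 0.42 at 168 h, adjusted p = 0.0394), and its groups overlapped. Oxidative phosphorylation had 1 called member of 29, the complex I subunit Ndufv1 at 0.23 (12.58 ± 0.06 at 336 h and 12.35 ± 0.09 at 168 h, adjusted p = 0.0275), and a median of 0.00. The citric acid cycle had 0 called of 17. The errors in this paragraph are SD with n = 5 in each group.

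RNA splicing factors were the list with the most members called. Of 26 measured genes 7 fell and 0 rose, and 25 were negative. Over all genes tested 2.33% were called lower and 47.2% were negative. The list's median was −0.21, against a median of 0.02 over all genes tested. Hnrnph1, an RNA-binding protein that steers exon choice, read 9.21, 9.30, 9.35, 9.15 and 9.14 at 336 h and 9.61, 9.71, 9.40, 9.82 and 9.91 at 168 h. It fell by 0.46 (SE 0.09, adjusted p = 0.00346) with no overlap. Srsf10, an SR-type splicing regulator, fell by 0.77 (6.40 ± 0.13 at 336 h and 7.17 ± 0.31 at 168 h, adjusted p = 0.028). Clk1, a kinase of SR proteins, fell by 0.50 (7.96 ± 0.18 at 336 h and 8.46 ± 0.13 at 168 h, adjusted p = 0.0139), and Rbm25, a splicing-associated RNA-binding protein, by 0.48 (7.5 ± 0.15 at 336 h and 7.98 ± 0.12 at 168 h, adjusted p = 0.0234; SD, n = 5 each). The remaining called members were Prpf4b (−0.39), Rbm39 (−0.36) and Tra2b (−0.34), with adjusted p-values of 0.0183, 0.0297 and 0.0336. Not every kept probe set of Rbm39 separated the groups. A dimmer one read 8.28 to 8.86 at 336 h and 7.85 to 8.88 at 168 h. The single positive member was Rbm20, the splicing regulator of titin, at 0.18 (adjusted p = 0.38). On the deposited scale, on which all tested probe sets had a median of 0.24, the list's median was 0.02 with 12 negative. It was −0.23 with median scaling and −0.09 with 23 negative under the cluster block. Under each of these settings 0 members of the list were called. The same list had 23 negative members and a median of −0.12 in the hearts after 10 mg/kg, and 24 negative and −0.14 after 80 mg/kg. It held 5 genes called lower after 10 mg/kg, where 2.96% of all genes were called higher and 2.4% lower, and 2 after 80 mg/kg, where these shares were 1.54% and 1.37%.

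Other lists held few called members. In protein synthesis 2 of 17 fell, the cap-binding factor Eif4e by 0.40 (adjusted p = 0.0143) and the elongation factor Eef1a1 by 0.21 (adjusted p = 0.0468), with a median of −0.07. Gpx4, the glutathione peroxidase that repairs lipid peroxides, rose by 0.26 (adjusted p = 0.0448) and was the 1 called of 23 antioxidant genes. The lists of heat shock and chaperone genes (30 measured), sterol and fatty acid synthesis (19), interferon-induced genes (26) and the proteasome (23) had 0 called on the brightest probe set. In all, 37 of the 569 measured list genes were called, beside 493 of all 10557 genes tested (4.67%).

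**Figure D3:**
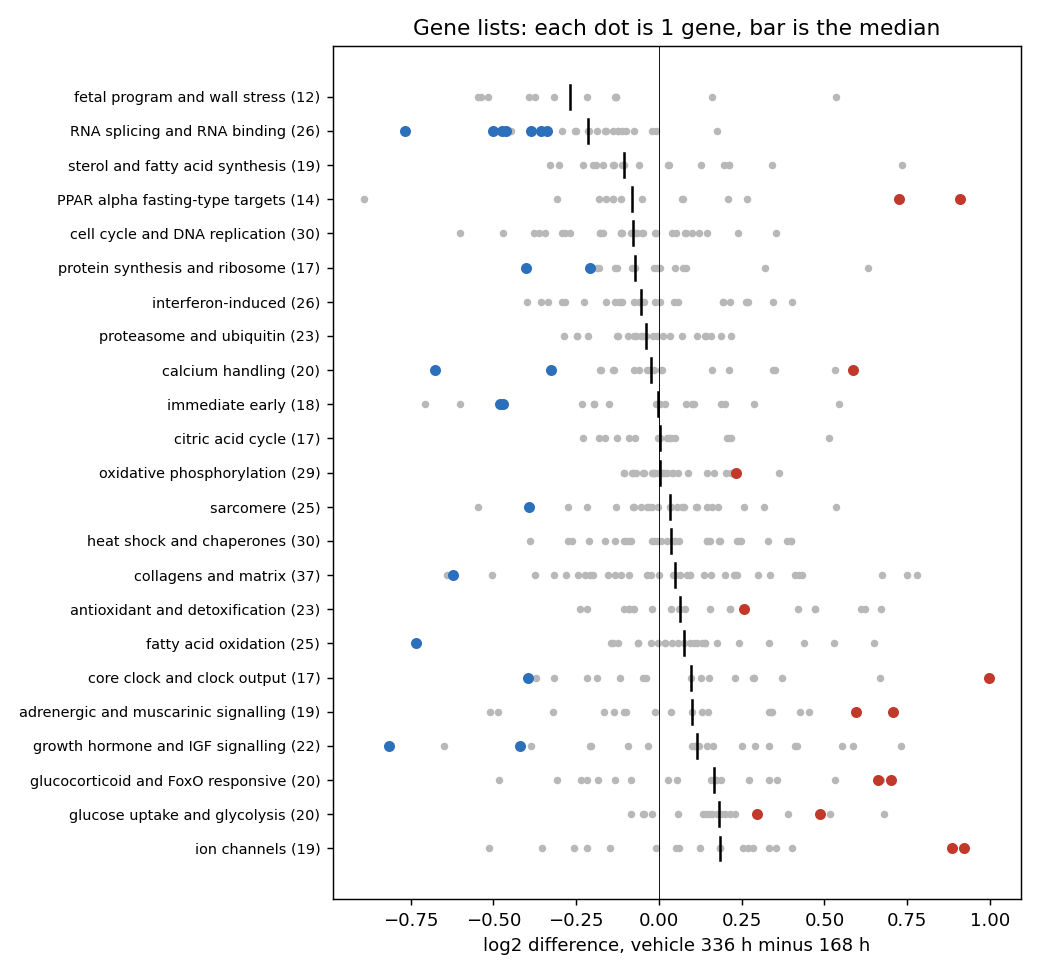
Log2 difference of vehicle hearts, 336 h minus 168 h, for each measured gene of 23 pathway lists (brightest probe set; number measured in brackets), with called genes in red where higher and blue where lower, other genes in grey and the list median as a bar. The RNA splicing list has 7 called genes, all lower, and no other list has more than 3.

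The largest single changes came largely from dim probe sets. Zbtb48, a telomere-binding zinc finger protein, had the largest rise of a named gene, 2.01 (SE 0.45, adjusted p = 0.011), a 4.02-fold difference. It read 5.84, 6.03, 5.30, 5.66 and 5.85 at 336 h and 5.30, 3.11, 5.19, 2.03 and 3.01 at 168 h, where 3 arrays lay well below the filter level of 5.03, and the groups touched at 5.30. Proser3 rose by 2.0 (6.15 ± 0.22 at 336 h and 4.15 ± 1.17 at 168 h, adjusted p = 0.00902) and Rab17, a small GTPase of epithelial traffic, by 1.70 (5.64 ± 0.49 at 336 h and 3.94 ± 1.07 at 168 h, adjusted p = 0.0266). The sizes of such differences are uncertain, since the 168 h means lay below that level. Adap2 (1.64), Insm2 (1.5) and Tpst1, a tyrosine sulphotransferase (1.29), rose with 168 h means of 4.17, 4.21 and 4.51. Brighter risers were Carmil3, an actin regulator (1.48), Slc25a38, a mitochondrial glycine carrier (1.46), Tob2, an antiproliferative protein (1.42), Phf20l1, a chromatin reader (1.27), and Mon1a, a vesicle fusion factor (1.25). Phf20l1 had other kept probe sets at −0.10 and −0.69. Tob2 read 8.99, 8.34, 8.53, 8.61 and 8.42 at 336 h and 8.07, 6.57, 8.27, 6.65 and 6.24 at 168 h, so that all 336 h hearts lay above all 168 h hearts, and its difference was 0.31 with the cluster block.

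Trpm7, a magnesium-permeable channel with a kinase domain, had the largest fitted fall, though how large cannot be fixed: its 336 h mean, 4.47, was under the 5.03 that the filter asks of the mean over all arrays. It read 4.38, 6.09, 5.88, 2.84 and 3.15 at 336 h and 6.69, 6.83, 6.21, 6.75 and 6.69 at 168 h. Every 336 h value lay below every 168 h value, the 336 h hearts differed widely among themselves, and Trpm7 fell by 2.17 (SE 0.38, adjusted p = 0.00228), with its other kept probe set at −0.23. Synpo2, an actin-bundling protein of muscle Z-discs (−1.58), Gas5, a growth-arrest noncoding RNA (−1.52), and Fancd2os (−1.26) fell with 336 h means of 4.41, 4.52 and 4.01, likewise below that level. Among brighter probe sets Rab14, a GTPase of endosomal recycling, read 9.95, 9.95, 9.91, 9.85 and 9.99 at 336 h and 11.02, 11.42, 10.17, 11.48 and 11.26 at 168 h. It fell by 1.14 (SE 0.25, adjusted p = 0.0102), with replicate 3 nearest to the 336 h hearts and a difference of −0.09 with the cluster block. Its 3 other kept probe sets stood between −0.23 and −0.15. The other large falls were Gpbp1 (−1.41), the transcription factor Sox4 (−1.30), the ribosomal protein Rpl7 (−1.13), the RUNX partner Cbfb (−1.09, with a 336 h mean of 4.97, below the filter level), Ireb2, an iron-responsive RNA-binding protein (−1.08), and Mbnl1, a splicing regulator of muscle maturation (−1.06). Other probe sets of Sox4 (0.17 and 0.38) and Mbnl1 (0.03) had the opposite sign. Over all genes with at least 2 kept probe sets and a called one, 65 of 313 (20.8%) had a probe set of opposite sign, against 38.3% of all 2788 such genes, and 0 were called in both directions.

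Cell type markers were set beside these values, since in whole tissue fewer cells of a type and less RNA per cell cannot be told apart. The 7 measured heart muscle cell markers summed to linear signals of 84418 to 85525 at 336 h and 86112 to 87070 at 168 h. These sums, the highest of the 18 cell type lists, did not overlap between the groups. They include Ttn, the 1 member called, which fell as above, and sums without Ttn were not computed. Of the 7 markers 3 were positive and 4 negative, with a median of −0.05. The gap between the sums therefore cannot be read as a lower signal across the list. Of 9 fibroblast markers 2 fell and 0 rose, where 2.33% of all genes tested were called lower. Pdgfra, a growth factor receptor, fell by 0.35 (adjusted p = 0.0317) and Ddr2, a collagen receptor, by 0.33 (adjusted p = 0.0307). With the cluster block all 9 were negative, with a median of −0.28. Their summed signal lay between 18925 and 21902 at 336 h and between 19081 and 24669 at 168 h. Of 10 macrophage markers Mrc1, the mannose receptor of resident macrophages, was called (6.97, 6.22, 6.74, 6.99 and 6.90 at 336 h and 7.16, 7.99, 7.19, 7.35 and 7.63 at 168 h), a fall of 0.70 (adjusted p = 0.0166). The macrophage sum lay between 1882 and 2527 at 336 h and between 1939 and 2436 at 168 h. With the cluster block 9 of the 10 macrophage markers were negative and the list's median, 0.04 without it, was −0.15. In the smooth muscle list, too, 9 of 10 were then negative, with a median of −0.14, against 0.13 without the block. Of 11 endothelial markers 0 were called and 7 were positive, with sums of 5440 to 5841 at 336 h and 4633 to 5673 at 168 h. Myl7, the atrial myosin light chain, read 6.28 to 6.89 at 336 h and 6.10 to 8.02 at 168 h, highest in replicate 1, and 0 of 6 atrial markers were called. The globin gene Hbb stood at −0.22 (adjusted p = 0.232). The adipocyte markers Adipoq, Plin1, Cidec and Lep lay below the filter level. The 5 adipocyte markers that were measured were all positive, with a median of 0.37, or 0.21 with the cluster block. After 10 mg/kg 2 of the 5 were negative, and after 80 mg/kg 1 was. Of 3 brown adipocyte markers Ppargc1a fell, as above. The lists for smooth muscle (10 measured), skeletal muscle (4), lymphocytes (5), neutrophils (2), mast cells (3), erythroid cells (3), adipocytes (5), Schwann cells (6), mesothelium (5), valve and cartilage (5), lymphatic endothelium (6) and thymus and lymph node (2) had 0 called. The part of these cell types in the results above was not tested.

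The same interval was measured in other arrays at the other doses, which share none of the vehicle arrays, although all enter 1 estimate of the spread and all 336 h arrays lie in 1 cluster. After 10 mg/kg 951 probe sets were called (5.11%), with 2.29% higher and 2.82% lower. After 80 mg/kg 562 were called (3.02%), with 1.11% higher and 1.91% lower. With the cluster block these counts were 2 and 4, and on the deposited scale they were 9395 and 2064, of which 99.9% were higher at each dose. Of the 848 called in vehicle hearts, 832 had the same sign after 10 mg/kg (98.1%, against 71.5% of all tested) and 816 after 80 mg/kg (96.2%, against 70.9%). After 10 mg/kg 352 were called too, which is 41.5% of the vehicle calls and 37.0% of the calls at that dose. After 80 mg/kg 233 were called too, 27.5% of the vehicle calls and 41.5% of those at that dose. At both doses 0 were called with the opposite sign, and 163 were called at all 3 dose levels, 48 higher and 115 lower. The median ratio of a called probe set's difference to that in vehicle was 0.748 after 10 mg/kg and 0.697 after 80 mg/kg.

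Tested directly, the interval differed between doses for 0 probe sets. The contrast of 10 mg/kg minus vehicle called 0 (smallest adjusted p = 0.0608, 569 at an unadjusted p under 0.05) and that of 80 mg/kg minus vehicle called 0 (smallest adjusted p = 0.9997, 639 at an unadjusted p under 0.05). Ttn fell by 0.33 after 10 mg/kg (adjusted p = 0.00443) and by 0.38 after 80 mg/kg (adjusted p = 0.00114). Hnrnph1 fell by 0.34 and 0.48 (adjusted p = 0.0139 and 0.00151), Ghr by 0.66 and 1.21 (adjusted p = 0.0459 and 0.00089) and Rab14 by 1.36 and 1.10 (adjusted p = 0.00278 and 0.0108) at the lower and the higher dose. The Igf1 probe set that fell in vehicle hearts stood at −0.35 (adjusted p = 0.0766) after 10 mg/kg and fell by 0.41 (adjusted p = 0.0483) after 80 mg/kg. Klf15 stood at 0.20 and 0.38 (adjusted p = 0.473 and 0.152), and Trpm7 at −0.58 and −0.88 (adjusted p = 0.377 and 0.17).

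**Figure D4:**
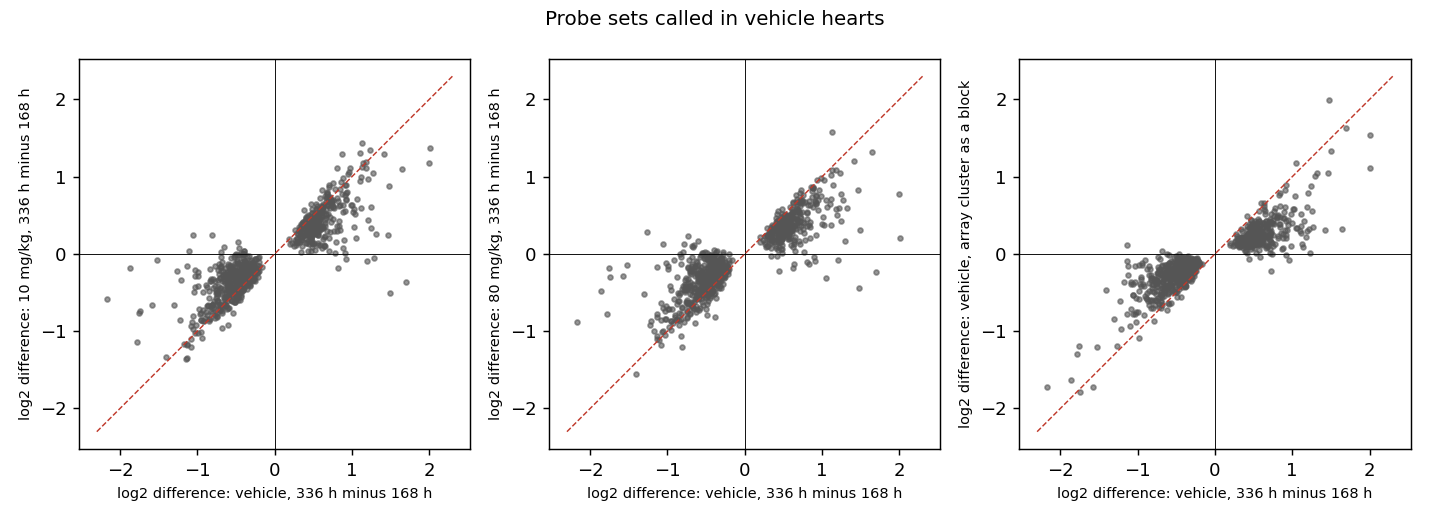
Each point is 1 of the 848 probe sets called in vehicle hearts, with its log2 difference of 336 h minus 168 h in vehicle on the horizontal axis and, on the vertical axis, the same interval after 10 mg/kg (left), after 80 mg/kg (middle) and in vehicle with the array cluster as a block (right); the dashed line marks equality. Most points share their sign in all panels, 832, 816 and 840 of 848, and lie nearer to zero with the block.

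The earlier vehicle hearts show which of the groups stood apart. In 836 of the 848 called probe sets (98.6%, against 63.0% of all tested) the 336 h mean lay outside the range of the means at 6, 24 and 168 h. The 168 h mean lay outside the range of the others in 435 (51.3%, against 41.3%). These shares describe the called probe sets, which the same arrays chose. Ttn averaged 12.64 at 336 h, against 13.03 at 168 h, 13.13 at 24 h and 13.04 at 6 h. Rab14 averaged 9.93 at 336 h, against 11.07, 11.05 and 11.20 at 168, 24 and 6 h. Klf9 was different, with 10.26 at 336 h, 9.60 at 168 h, 9.71 at 24 h and 10.30 at 6 h, and so was Usp2, with 9.34, 8.34, 8.81 and 9.15 at the same times. Both had 6 h means close to those of 336 h.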

How the data were processed

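Gene expression was measured on Affymetrix rat arrays in 62 samples of cardiac muscle. Per the labels, RNA came from tissue kept in RNAlater and was labelled with biotin by a one-cycle protocol. The deposited values are linear intensity signals for each probe set. The software was GCOS with MAS5, per the submitters' processing notes, and their versions are not given in the sources used here. Of 31099 probe sets 57 control probe sets were left out. Deposited signals had 2% trimmed means of 82.9 to 246, so arrays were not on 1 scale and log2 signals were quantile normalized, and differences are relative to the other probe sets. Probe sets with a mean at or above the 40th percentile (5.03) were tested.

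The model, in limma 3.58.1 under R 4.3.3, had a mean for each of 12 groups of dose and time (50 residual degrees of freedom), with two-sided moderated p-values adjusted by Benjamini-Hochberg, and the procedure was tested on simulated data. Gene names came from the platform annotation, with 20758 of 20826 probe sets of 1 gene matched in a RefSeq table and 0 symbols updated. Among those tested, 14260 had 1 gene, 338 several and 4027 none listed, and none was named from several. Clusters came from k-means with 3 centres on the first 2 principal components. No pair of arrays was identical, and all columns were mapped. Array number limits the precision. Each mean of the comparison rests on 5 arrays, while the spread was estimated over all 62 arrays.

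The gene lists (23 pathway and 18 cell type lists) and the comparison were chosen with earlier results of these data known. Named genes were the 12 largest called rises and falls with 1 gene, up to 4 called members of a list, and a fixed set of cardiac, clock and growth genes. One item of that set is not reported here. The uncalled list members, the called probe sets of Igf1 and Col1a2 and the further probe sets of named genes were chosen after their values were seen. Alternatives covered scaling, filter, samples in the fit, array weights, clusters, control probes, RNA quality, probe sets per gene and each array left out.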

Additional observations from a re-analysis of the deposited data

Results flagged for a closer look

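In a group of 5 arrays a value was singled out where its gap to the nearest other array, divided by the range of the group, passed 0.71 (Dixon's 95% limit). Of 212 tests of named probe sets and technical measures 16 did so, where chance gives about 1 in 20. Values are log2 signals unless stated.

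Replicate 3 of the 168 h vehicle hearts, the array in the cluster of the 336 h arrays, was the far array for 7 probe sets. It was the lowest for Trpm7 (6.21, with the next at 6.69), Cbfb (5.37 and 6.13), Ireb2 (5.10 and 6.80), Clock (7.94 and 8.42), Eef1a1 (12.27 and 12.41) and Rhoa, a cytoskeletal GTPase named after its values were seen (9.46 and 9.76). It was the highest for Klf9 (10.13, with the next at 9.54). In each of these 7 the array deviated towards the 336 h hearts. The part of the array cluster in this was not tested.

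Replicate 2 of the 168 h hearts had the lowest trimmed mean signal of the 10 arrays. It stood lowest for Slc25a38 (3.36, with the next at 5.91) and Pfkm (11.80 and 12.03), and highest for Prpf4b (8.27 and 7.92) and Rbm39 (10.31 and 9.94). Its mean rank correlation with the rest of its group was 0.920, with the next array at 0.928.

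Among the 336 h hearts replicate 5 was highest for Carmil3 (8.67, with the next at 6.90) and Ndufv1 (12.69 and 12.57) and lowest for Mbnl1 (6.80 and 7.44). Replicate 2 was highest for an uncalled Vcl probe set (10.48 and 10.27).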

How the results depend on the processing

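For vehicle, where 848 probe sets were called, 0 were called on the deposited scale (median of all tested probe sets 0.24, 2123 at an unadjusted p under 0.05), 0 with only the 10 arrays (4083 unadjusted) and 0 with the cluster block. The count was 135 with median scaling (22.2% higher, against 39.4%), 385 with no filter, 523 with only vehicle arrays, 2238 with array weights, 36 in the late cluster only, 203 with the control probe component, and 530 with probe sets averaged per gene (50.6% higher). Leaving out 1 array gave 145 to 1677. For 10 mg/kg the count of 951 became 9395 on the deposited scale (median of all 0.62), 207 with median scaling, 532 with no filter and 2 with the cluster block, with 459 to 1249 when 1 array was left out. For 80 mg/kg the count of 562 became 2064 on the deposited scale (median of all 0.49), 67 with median scaling, 238 with no filter, 1059 with array weights, 4 with the cluster block and 47 in the late cluster only, with 107 to 858 when 1 array was left out. The interval by dose for 10 mg/kg minus vehicle had 1 call on the deposited scale, with array weights and with the cluster block, and 0 to 1 without 1 array, and that for 80 mg/kg minus vehicle had 11 in the late cluster only. Of 37 called list genes 0 stayed called on the deposited scale, 4 with median scaling and 0 with the cluster block. The causes were not tested.

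Signs turned on the deposited scale for Igf1 (0.21, brightest probe set), Bmal1 (0.20), Top2a (0.24) and Per2 (0.18), with median scaling for Myh6 (−0.19), with array weights for Bmal1 (0.039), and with probe sets averaged for Cdkn1a (−0.43). They turned with the cluster block for Myh7 (−0.40), Col1a1 (−0.29), Cdkn1a (−0.0091), Dbp (−0.24), Bmal1 (0.12) and Top2a (0.12). In the late cluster only they turned for Ireb2 (0.48), Clock (0.016), Myh7 (−0.22), Col1a1 (−0.23), Nr1d1 (−0.23), Dbp (−0.11), Bmal1 (0.084) and Per2 (0.83), and with the control probe component for Igf1 (0.072), Bmal1 (0.10) and Per2 (0.17). Leaving out 1 array gave −0.15 to 0.046 for Igf1, −0.20 to 0.13 for Bmal1, −0.087 to 0.044 for Top2a, −0.32 to 0.15 for Per2 and −0.14 to 0.30 for Dbp. Of these, Ireb2 and Clock were called in the vehicle comparison.

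Replicate numbers did not pair the arrays: the 4 same-numbered pairs had correlations of −0.012 to 0.062, with 0 above 0.1. The replicate block gave 1181 calls in vehicle, and signs turned for Bmal1 (0.034) and Top2a (0.052). The late cluster could not be fitted for 10 mg/kg, since it held no 168 h array of that dose.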

Other observations

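Among the 92 probe sets called whichever array was left out, 38 were also called after 10 and 80 mg/kg, and the following of these were chosen after their values were seen. Pkia, an inhibitor of protein kinase A, averaged 9.69 at 336 h and 10.58 at 168 h and fell by 0.89 in vehicle hearts (SE 0.16, adjusted p = 0.00346 in limma). Arpp19, a phosphatase inhibitor, fell by 0.86, and Cpeb4, which binds the tails of messenger RNAs, by 0.75. Eif4ebp2, a repressor of cap-dependent translation, rose by 1.15 (9.12 at 336 h and 7.97 at 168 h, SE 0.22, adjusted p = 0.00346), by 1.18 after 10 mg/kg and by 0.90 after 80 mg/kg.

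Others of the 38 fell. Nedd4, a ubiquitin ligase, fell by 0.47 in vehicle hearts, the proteasome lid subunit Psmd14 by 0.75, the ubiquitin-activating enzyme Uba6 by 0.75 and the calpain inhibitor Cast by 0.59. Fnip1, a partner of folliculin in nutrient sensing, fell by 0.93, by 0.86 after 10 mg/kg and by 0.89 after 80 mg/kg. All 92 probe sets kept their sign with the cluster block, and a median of 58.9% of the size remained.

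In the test of the interval between doses, the probe set with the smallest adjusted p (0.0608), which has no gene listed, stood at 1.68 after 10 mg/kg and −0.47 in vehicle hearts.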
